A study of Mus musculus with 12 samples.

Results

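Open chromatin was examined at 4 genes that switch off cytokine signals in T cells, Socs1, Socs2, Socs3 and Cish, in 12 ATAC-seq libraries of mouse CD4+ T cells. ATAC-seq uses the Tn5 transposase to cut and tag accessible DNA, so a called peak marks a stretch that was open in that library. The genes were taken as a family, and every called peak that overlapped a gene body or the 20 kb on either side of it was assigned to that gene. Overlapping peaks of all libraries were merged, which gave 40 regions at the 4 genes out of 110642 in all, and 249 of the 577689 peaks used. Of the 40 regions, 8 belonged to Socs1, 11 to Socs2, 11 to Socs3 and 10 to Cish.

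SOCS proteins and their close relative CISH close a feedback loop: a cytokine receptor activates JAK kinases, these activate STAT transcription factors, STATs enter the nucleus and turn on SOCS genes, and the SOCS proteins then bind the receptor or the kinase and end the signal. Each protein carries an SH2 domain that recognises phosphorylated tyrosines and a SOCS box that recruits ubiquitin ligase components. In helper T cells they temper the response to IL-2, IL-4, IL-6, IL-12 and interferon gamma, the cytokines that set Th1 and Th2 fates.

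Knockout cells came from mice of strain C57BL/6J-Ets1-SE-KO, named for a super-enhancer, a dense group of enhancers, of the transcription factor gene Ets1, and wild-type cells from C57BL/6J mice. Both genotypes were profiled as Th2, Th1 and naive CD4+ cells of the spleen, in 2 libraries per group. Th2 cells had been cultured for 6 days with IL-4 at 50 ng/mL, antibody to interferon gamma and anti-CD28. Th1 cells had been cultured for 6 days with IL-12 at 10 ng/mL, IL-2 at 1 ng/mL and anti-CD28. Plates for both cultures were coated with anti-CD3. Naive cells were taken straight from negative selection beads. By their titles, the libraries of Th1 knockout, Th1 wild type and Th2 wild type came from 2 biological replicates per group, whereas the 2 naive libraries of a genotype were repeats of 1 biological sample, so that their spread is technical. The 2 libraries used as Th2 knockout have Th2 cells as their source name, but their titles name them Th1, technical repeat 2 of knockout biological replicates 1 and 2, so by title they would repeat the Th1 knockout samples. In them all 4 Th2 marker genes (Gata3, Il4, Il5 and Il13) had a peak within 2 kb, as in Th2 wild-type libraries, against 1 to 3 of these genes in Th1 libraries.

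Each library was deposited as a list of 34746 to 56357 peaks, and the number of reads behind a list is unknown, so a missing peak means only that none was called. In the wild-type lists a 30.6 kb stretch of chromosome 9, 140.0 kb beyond Ets1, held 4 to 6 peaks, and in all 6 knockout lists it held 0. Peaks at 4 of 4 Y-linked genes were called in every library except the 2 naive knockout libraries, which had them at 0 of 4. The peak names carry one run tag in the 4 naive libraries and another in the 8 Th1 and Th2 libraries, so naive against polarized cells cannot be told apart from that tag, from culture or from the difference in list quality that goes with it. The median −log10 q-value of a list was 4.93 to 9.78 in naive libraries and 3.39 to 4.14 in polarized ones. In bulk libraries a region open in more cells and a region more open per cell cannot be told apart.

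The DNA before the start of the genes was set out to show the motifs searched in it, and the peaks over it are described below. The RefSeq promoter table (GRCm38.p6), which covers 250 bases before to 50 bases after a start, matched 3 of the 4 genes: Socs1, Socs3 and Cish. The 250 bases before each start lie on the minus strand for Socs1 (chr16:10785537-10785786) and Socs3 (chr11:117969367-117969616), and on the plus strand for Cish (chr9:107296409-107296658). Capitals mark the STAT motif TTCNNNGAA, a palindrome bound by STAT dimers.
Socs1: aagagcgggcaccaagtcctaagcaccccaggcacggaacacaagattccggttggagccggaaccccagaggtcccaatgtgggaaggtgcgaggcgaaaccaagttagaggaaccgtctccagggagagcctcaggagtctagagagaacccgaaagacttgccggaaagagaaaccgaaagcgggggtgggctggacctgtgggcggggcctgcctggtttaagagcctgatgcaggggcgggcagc
Socs3: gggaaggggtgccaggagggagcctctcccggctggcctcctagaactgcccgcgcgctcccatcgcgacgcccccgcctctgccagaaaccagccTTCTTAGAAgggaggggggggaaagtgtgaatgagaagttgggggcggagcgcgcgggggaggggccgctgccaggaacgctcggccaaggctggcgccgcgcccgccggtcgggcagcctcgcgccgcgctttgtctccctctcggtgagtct
Cish: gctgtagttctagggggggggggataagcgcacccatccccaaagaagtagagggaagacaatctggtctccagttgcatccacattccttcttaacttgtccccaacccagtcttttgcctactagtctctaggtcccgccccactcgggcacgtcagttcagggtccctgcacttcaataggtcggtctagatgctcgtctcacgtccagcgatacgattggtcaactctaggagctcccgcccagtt
Cish, across the start (chr9:107296654-107296682): cagttTTCCTGGAAagTTCTTGGAAatct
Socs3 held 1 match, TTCTTAGAA, at bases -154 to -146 counted from the start. Cish held 2 matches, TTCCTGGAA at bases 1 to 9 and TTCTTGGAA at bases 12 to 20, and the Socs1 window held none. Of 32851 promoter windows of the same 300 bases, 8.30% held the motif and 0.457% held it 2 or more times. The other motifs searched on both strands were the STAT motif with 4 bases between its arms, the ETS motif CCGGAAGT, the AP-1 motif TGANTCA and the RUNX motif TGTGGTT, which 6.95%, 3.89%, 7.81% and 5.27% of the windows held and none of the 3 windows did. A match is a string of letters and was not tested as a binding site.

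Socs3 restrains signalling through the IL-6 receptor subunit gp130 and STAT3. Its promoter window, at the start used here, lay under a wide peak in polarized libraries. In naive libraries that window was covered in part or not at all. In all 8 polarized libraries a single peak covered all 300 bases of the promoter window. In naive knockout libraries 115 and 0 of the 300 bases lay under a peak, against 81 and 67 in naive wild-type libraries. The STAT motif at chr11:117969512-117969520 accordingly lay under a peak in 8 of 8 polarized and 0 of 4 naive libraries. The start used, base 117969366, lies inside the annotated Socs3 body, whose upstream end is at 117970336. In all 4 naive libraries the strongest peak at the start lay between these positions, within 117969651 to 117970213. The coverage given here therefore depends on the start chosen. Of 4354 promoter windows in the genome covered over all bases in every polarized library, 31 were covered over all bases in no naive library, a share of 0.712%, and Socs3 was among them. With all lists cut to their strongest 34746 peaks, called equal lists here, the share was 29 of 4217 windows, or 0.688%, and Socs3 was again among them. This rule, and the comparison of 8 polarized with 4 naive libraries at the start regions below, were chosen after the data had been seen. The shares are therefore a description.

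The merged region at the Socs3 start spanned chr11:117968713-117970316 and held a peak in all 12 libraries. Peaks covered 1150 and 1197 bp of it in Th2 knockout libraries and 1075 and 1329 bp in Th2 wild-type libraries. Th1 knockout libraries had 822 and 1118 bp, against 1253 and 1425 bp in Th1 wild-type libraries. Every polarized library lay above every naive one, since naive knockout libraries had 774 and 487 bp and naive wild-type libraries 660 and 677 bp. The means were 1171 ± 182 bp in polarized libraries (SD, n = 8) and 650 ± 119 bp in naive libraries (SD over 4 libraries of 2 biological samples, 1 per genotype). Over the genome, 959 of the 14561 regions open in all 12 libraries had every polarized library above every naive one, or 6.59%, and in equal lists the share was 6.61%. Those regions had a median width of 978 bp, against 1604 bp for the Socs3 start region, and were not matched to it in width.

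At Cish, a STAT5 target that dampens IL-2 and T cell receptor signalling, the start region was also wider in polarized libraries, while its core and both STAT motifs were open in all 12. The region spanned chr9:107295474-107297042. Th2 knockout libraries had 1451 and 1418 bp of it under peaks and Th2 wild-type libraries 1390 and 1126 bp. Th1 knockout libraries had 1345 and 1256 bp and Th1 wild-type libraries 1227 and 1393 bp. The naive libraries were all narrower, with 499 and 804 bp in naive knockout and 893 and 1010 bp in naive wild-type cells. The means were 1326 ± 112 bp (SD, n = 8) in polarized and 802 ± 219 bp (SD over 4 libraries of 2 biological samples) in naive libraries. This separation did not hold in equal lists, where replicate 1 of the Th1 knockout had 595 bp. Over the genome, 6.59% of the regions open in all 12 libraries were separated in this direction in the full lists, again without matching for width.

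At Socs2, best known as a brake on growth hormone signalling, the region at the gene end with the higher coordinates (chr10:95416569-95417550) had more base pairs under peaks in every polarized library than in any naive one. That region also overlaps the long non-coding RNA gene 5730420D15Rik. Peaks covered 907 and 692 bp in Th2 knockout libraries, 880 and 847 bp in Th2 wild-type libraries, 754 and 954 bp in Th1 knockout libraries and 928 and 937 bp in Th1 wild-type libraries. In naive knockout libraries they covered 442 and 0 bp, and in naive wild-type libraries 313 and 272 bp. Polarized and naive libraries did not overlap, with means of 862 ± 93.8 bp (SD, n = 8) and 257 ± 186 bp (SD over 4 libraries of 2 biological samples). This region lacked a peak in 1 naive library, and of the 23077 regions open in all 8 polarized libraries, with or without naive peaks, 8305 were separated in this direction, or 36% (38.5% in equal lists).

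Socs1, a direct inhibitor of JAK kinases and a brake on interferon gamma and IL-2 signalling, showed no such separation at its start. Its start region (chr16:10784959-10786709) had 1257 to 1691 bp under peaks in polarized libraries, with a mean of 1478 ± 157 bp (SD, n = 8). Naive libraries had 1197 to 1413 bp, with a mean of 1321 ± 104 bp (SD over 4 libraries of 2 biological samples), and the ranges overlapped. All 300 bases of the Socs1 promoter window lay under a peak in all 12 libraries.

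**Figure D1:**
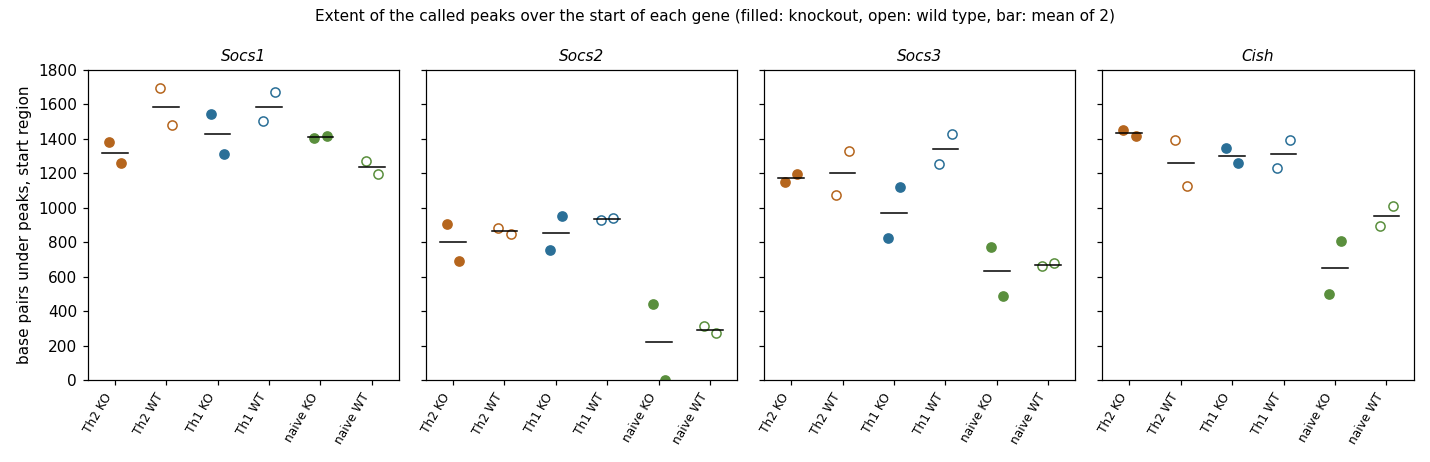
Base pairs under called peaks within the merged region at the start of each gene, per library, for Th2, Th1 and naive cells of each genotype (filled circles, knockout; open circles, wild type; bars, mean of 2 libraries). Naive libraries lie below all polarized ones for Socs2, Socs3 and Cish, while for Socs1 naive libraries at 1197 to 1413 bp overlap polarized ones at 1257 to 1691 bp. Over the genome, naive lay below polarized libraries at 6.59% of regions open in all 12 libraries, which were not matched in width. The share was 36% of regions open in all 8 polarized libraries, with or without naive peaks. In equal lists the Cish ranges overlap.

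Of the 40 regions, start regions included, a peak in all 12 libraries was found at 8, or 20%, against 13.2% of all regions. A peak in 1 library alone was found at 7 regions, or 17.5%, against 21.5% of all regions. The median width was 554 bp for the family's regions and 450 bp for all regions. Strength is given below as the percentile of the strongest peak among all peaks of its own list by −log10 q-value, so it ranks a peak within a library and shows no change between libraries.

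At Socs1 the regions open in only some of the libraries all lay away from the start. The region 12.9 kb downstream of the start (chr16:10772027-10772618) was open in all 12 libraries. Its percentile was 29.0 and 57.4 in Th2 knockout and 81.9 and 57.7 in Th2 wild-type lists, and 56.2 and 52.0 in Th1 knockout and 72.2 and 19.6 in Th1 wild-type lists. In naive lists it was 91.0 and 95.3 for the knockout and 97.2 and 97.8 for the wild type, among the strongest peaks of those lists. A region 16.7 kb upstream (chr16:10802247-10802685) was open in 4 of 4 naive libraries, at percentiles of 22.3 and 26.5 in knockout and 53.4 and 59.7 in wild-type lists, and in none of the 8 polarized ones. A region 2.89 kb upstream (chr16:10788428-10789049), which overlaps Tnp2, a sperm chromatin protein gene, was open in all 4 Th2 libraries and in no other. Its percentiles were low, at 10.9 and 38.7 in Th2 knockout and 14.6 and 44.3 in Th2 wild-type lists.

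At Socs2 the strongest peak of every polarized list lay outside the gene. The region 11.3 kb beyond the gene end with the lower coordinates (chr10:95371749-95372578) was open in 8 of 8 polarized libraries. Its percentile was 96.0 and 98.0 in Th2 knockout, 97.8 and 98.9 in Th2 wild-type, 95.5 and 96.8 in Th1 knockout and 94.6 and 92.4 in Th1 wild-type lists. Naive knockout libraries had a peak there too, at percentiles of 47.3 and 46.7, below those of a region in the gene body described with the knockout comparison, and naive wild-type libraries had none. Apart from the region at the gene end with the higher coordinates, regions inside the Socs2 body had a peak in 1 to 3 libraries each.

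At Socs3 both directions were present. The region 16.6 kb downstream of the start (chr11:117952112-117952738) was open in 4 of 4 naive libraries at percentiles of 70.2 to 87.2, and in 2 of 8 polarized ones at 5.04 and 9.19. The region 20.2 kb upstream (chr11:117989534-117990462), inside Pgs1, a mitochondrial lipid synthesis gene, and across the edge of the 20 kb window, was open in 8 of 8 polarized libraries at percentiles of 81.2 to 94.5. Among naive libraries only replicate 1 of the wild type had a peak there, at 43.3. A region 5.46 kb downstream was open in all 12 libraries at percentiles of 34.6 to 79.1.

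At Cish most distal regions were either shared by all cells or open mainly in polarized ones. The region 17.4 kb upstream (chr9:107278471-107279225), in the body of Mapkapk3, a kinase gene of the p38 pathway, was open in 8 of 8 polarized libraries at percentiles of 27.7 to 78.2, and in 0 of 4 naive ones. A region at 6.35 kb from the start, just past the gene's end (chr9:107303005-107303544), was open in 7 of 8 polarized libraries, all but replicate 1 of the Th1 knockout, and in 0 of 4 naive ones. The region 10.7 kb downstream of the start (chr9:107307382-107308421) was open in all 8 polarized libraries at percentiles of 17.5 to 55.5 and in both naive knockout libraries at 10.7 and 17.4. The naive knockout peaks covered 225 and 315 bp at its lower-coordinate edge, against 424 to 803 bp in polarized libraries. The region 16.0 kb downstream (chr9:107312666-107313541) was open in all 12 libraries at percentiles of 68.8 to 95.5. The region over the Mapkapk3 start was open in all 12 as well, at percentiles of 29.4 to 85.8.

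**Figure D2:**
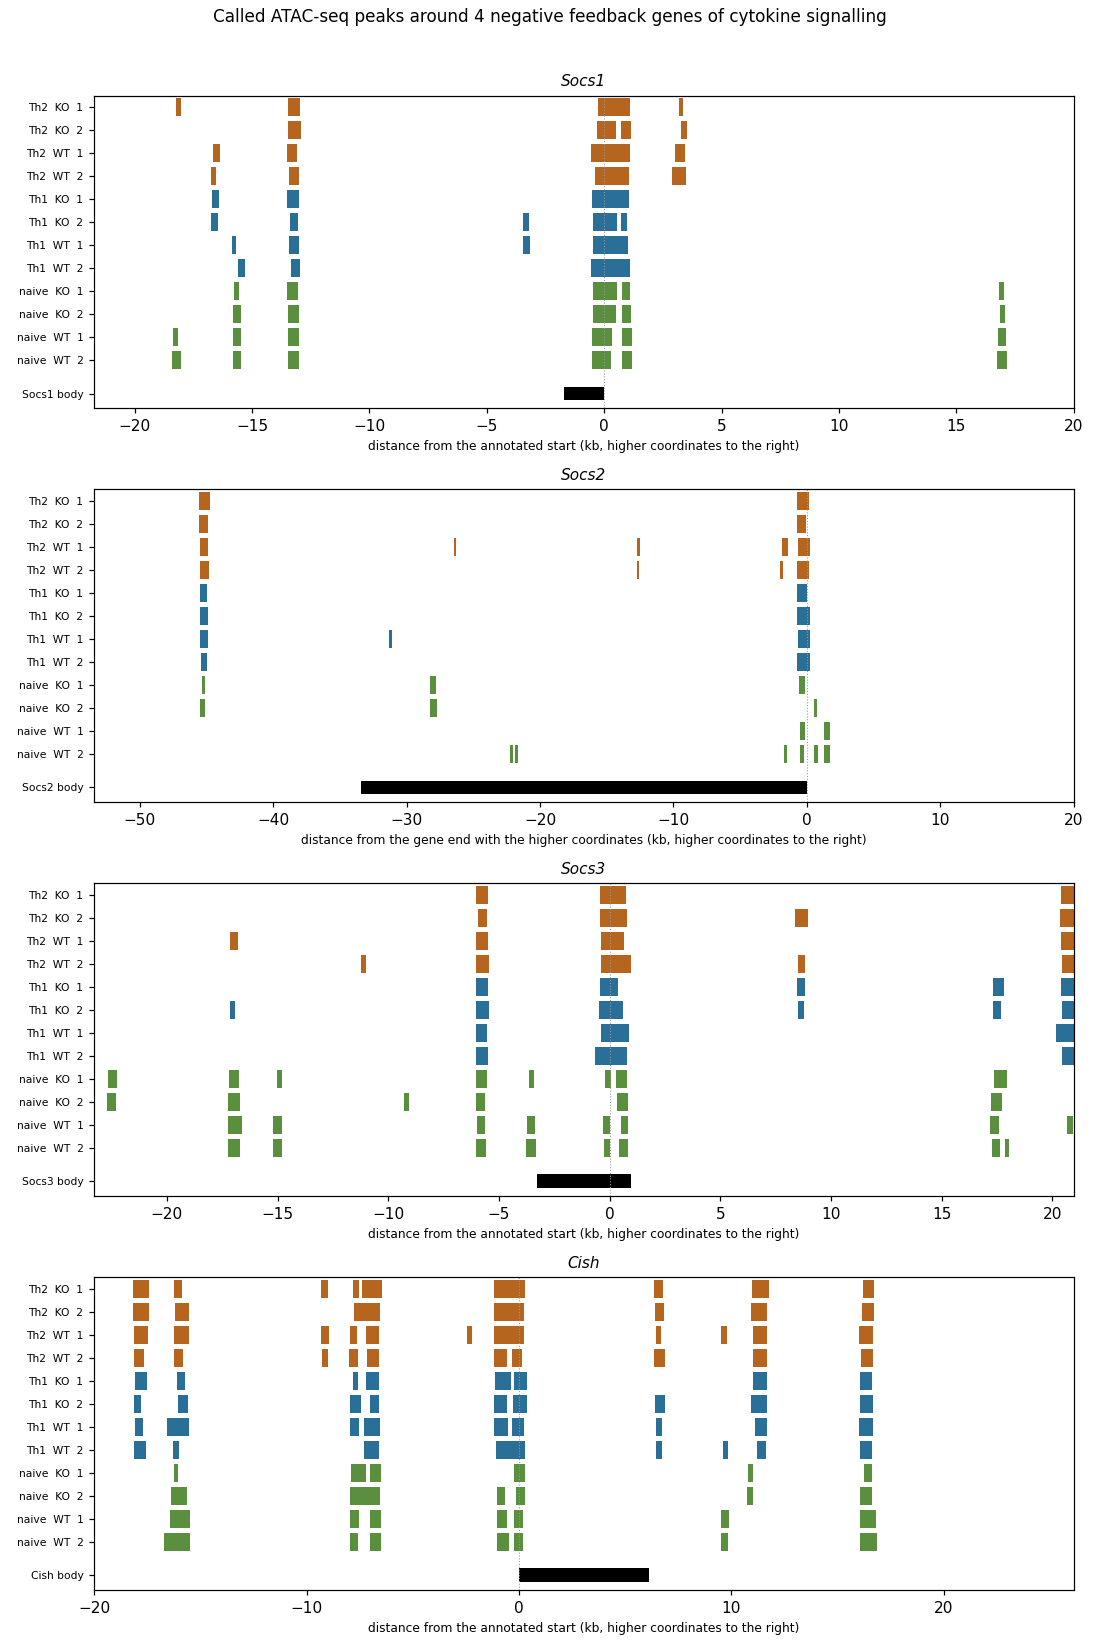
Called peaks of each library (rows) drawn to scale around Socs1, Socs2, Socs3 and Cish against distance in kb from the annotated start (for Socs2, from the gene end with the higher coordinates), with the gene body in black. At the Socs3 start, 3 of the 4 naive rows show separate short peaks and replicate 2 of the naive knockout a single one beside the promoter window, and the polarized rows the shared distal peak 44.7 kb from that Socs2 end.

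**Figure D3:**
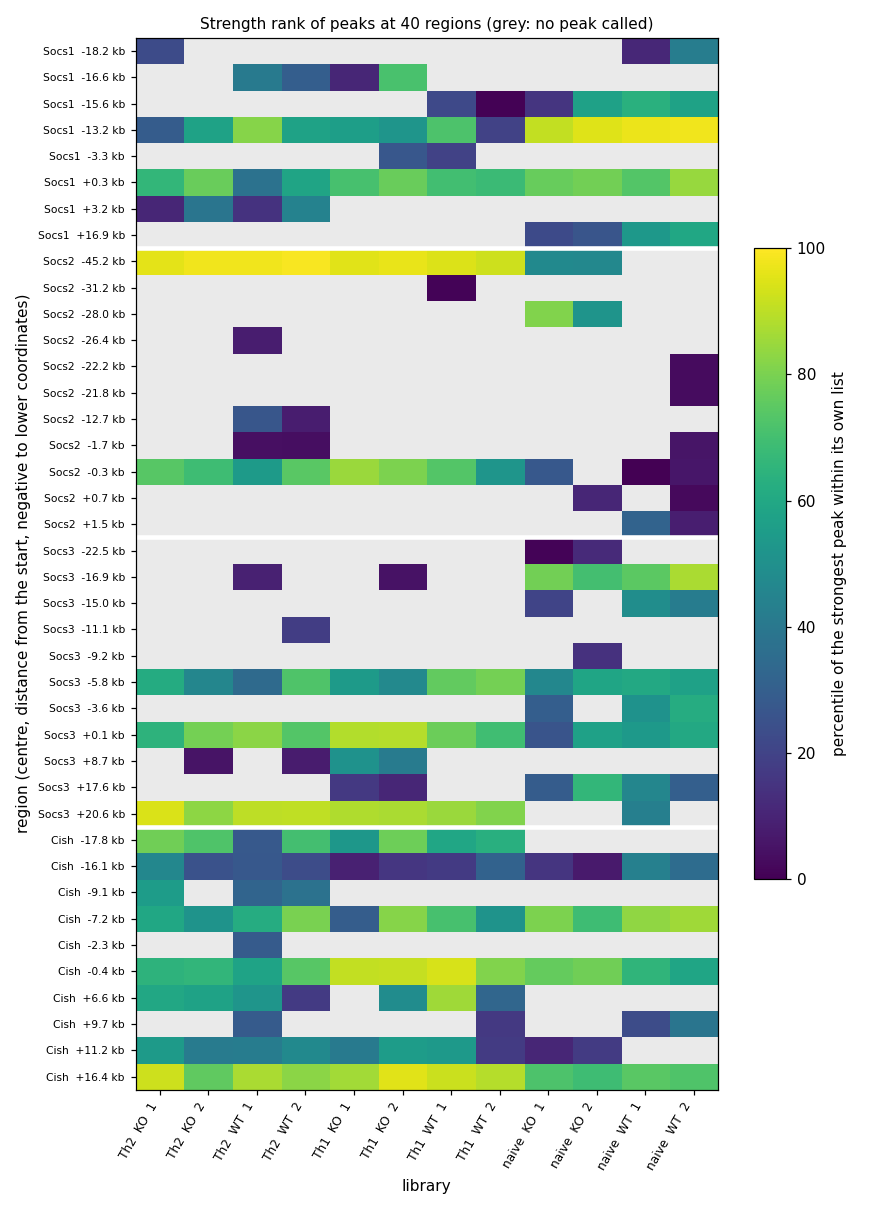
Percentile of the strongest peak within its own list (colour, 0 to 100) for the 40 regions (rows, by distance in kb of the region centre) in the 12 libraries (columns); grey means that no peak was called. Socs2 at -45.2 kb lies at 92.4 to 98.9 in all polarized lists, and Socs1 at -13.2 kb lies at 91.0 to 97.8 in all naive lists.

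Polarized cells were next set against naive cells of the same genotype. A region was called where both libraries of one group had a peak and neither of the other did, and the background is the share of all regions open in both libraries of the group with the peak that met the same rule. Groups of 2 libraries are too small for a test to reach the 0.05 threshold, so no p-value is given for a region. Both polarized cell types of a genotype were set against the same naive libraries. Between Th2 knockout and naive knockout cells, 4 of 15 of the family's regions were open in Th2 only (background 48.3%) and 6 of 16 in naive only (33.1%). Between Th2 and naive wild-type cells the counts were 8 of 19 (44%) and 7 of 18 (42%). Between Th1 knockout and naive knockout cells they were 4 of 16 (41.7%) and 4 of 16 (35.2%), and between Th1 and naive wild-type cells 4 of 15 (33.3%) and 7 of 18 (46.6%). The shares at the family were near or below the background in each of these comparisons. In equal lists the counts in Th2 only and in naive only were 4 of 12 (background 46.5%) and 5 of 13 (40.1%) for knockout cells and 3 of 10 (47.7%) and 5 of 12 (44%) for wild-type cells. The counts in Th1 only and in naive only were 4 of 13 (40.9%) and 5 of 13 (37%) for knockout cells and 5 of 14 (40.6%) and 4 of 12 (39.6%) for wild-type cells.

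Over all 8 polarized against all 4 naive libraries, a grouping chosen after the data had been seen, 1 of 13 regions was open in every polarized library and no naive one (background 27.6%). It was the Mapkapk3 region 17.4 kb upstream of Cish. In the other direction 1 of 12 regions was called (18.6%), the one 16.7 kb upstream of Socs1. In equal lists 1 of 9 regions was called for polarized cells (30.9%), the Cish region 10.7 kb downstream, and 2 of 10 for naive cells (20.6%), the same Socs1 region and the Socs3 region 16.6 kb downstream.

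Th2 cells were set against Th1 cells within each genotype. Between Th2 and Th1 knockout cells, 1 of 15 regions was open in Th2 only (background 16.2%) and 2 of 16 in Th1 only (6.82%). Between Th2 and Th1 wild-type cells, 5 of 19 were open in Th2 only (19.9%) and 1 of 15 in Th1 only (5.85%). With both genotypes together, again grouped after the data had been seen, 1 of 15 regions was open in all 4 Th2 and no Th1 library (7.47%), the weak one over Tnp2, and 0 of 13 the other way (1.86%). The call over Tnp2 did not remain in equal lists, where 1 of the Th2 peaks of each genotype dropped out, and there 0 of 9 and 0 of 12 regions were called (5.32% and 3.5%). Within a genotype, equal lists gave 0 of 12 in Th2 only (12.6%) and 1 of 13 in Th1 only (11.1%) for knockout cells, and 0 of 10 (13.8%) and 1 of 14 (11.7%) for wild-type cells.

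Base pairs under peaks in the whole gene window were compared in equal lists with an exact two-sided permutation test of 4 Th2 against 4 Th1 libraries, whose smallest p is 0.0286, adjusted by Benjamini-Hochberg over 16711 protein-coding genes. Each cell type pooled both genotypes, and the permutations ignored genotype. By title the Th2 knockout libraries would repeat the Th1 knockout samples, so the Th2 and Th1 groups may share biological samples. Socs1 had 2076 ± 507 bp in Th2 and 2194 ± 144 bp in Th1 libraries (SD, n = 4 each), a difference of -118.5 bp (exact permutation p = 0.714), and it was 116.75 bp with all deposited peaks. Socs2 had 1535 ± 126 bp in Th2 and 1479 ± 107 bp in Th1 libraries (SD, n = 4 each; exact permutation p = 0.543). Socs3 had 2147 ± 343 bp in Th2 and 2468 ± 97.3 bp in Th1 libraries, a difference of -321.5 bp (SD, n = 4 each; exact permutation p = 0.0571, adjusted p = 0.300). Cish had 4740 ± 900 bp in Th2 and 3948 ± 915 bp in Th1 libraries, a difference of 791.5 bp (SD, n = 4 each; exact permutation p = 0.314). None of the 4 genes passed even before adjustment, while 2111 of the 16711 genes (12.6%) had an unadjusted p under 0.05. After adjustment 0 genes passed, the smallest adjusted exact permutation p being 0.226. With that smallest p, adjustment could pass a gene only if a large share of all genes lay at it. The same holds for the knockout comparison and the pathway list below, so a lack of passing genes there decides little. Leaving out replicate 2 of Th2 wild type took the Socs3 difference to -424 bp at the smallest possible exact permutation p of 0.0286.

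By group, the window of Socs1 held 1704 ± 457 bp under equal-list peaks in Th2 knockout and 2448 ± 94.8 bp in Th2 wild-type cells, 2115 ± 108 bp in Th1 knockout and 2274 ± 157 bp in Th1 wild-type cells, and 2377 ± 121 bp in naive knockout and 2636 ± 251 bp in naive wild-type cells (SD over 2 libraries each). The 2 naive libraries of a genotype are repeats of 1 biological sample, so their SD is technical. Naive wild type was highest and Th2 knockout lowest, and next neighbours in that order were within about 1 SD of each other. Socs2 held 1550 ± 216 bp in Th2 knockout and 1521 ± 23.3 bp in Th2 wild-type cells, 1445 ± 144 bp in Th1 knockout and 1513 ± 94.8 bp in Th1 wild-type cells, and 1023 ± 54.4 bp in naive knockout cells (SD over 2 libraries each). Naive wild-type libraries had 0 bp at Socs2 in equal lists and 716 and 1708 bp in the full lists. The 4 polarized groups lay within their spread of each other at Socs2, naive knockout lay below them and naive wild type lowest.

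Socs3 held 2239 ± 38.2 bp in Th2 knockout and 2055 ± 564 bp in Th2 wild-type cells, 2398 ± 85.6 bp in Th1 knockout and 2539 ± 32.5 bp in Th1 wild-type cells, and 2316 ± 582 bp in naive knockout and 2514 ± 370 bp in naive wild-type cells (SD over 2 libraries each). All 6 groups at Socs3 lay within the spread of their neighbours in order. Cish held 5468 ± 552 bp in Th2 knockout and 4012 ± 51.6 bp in Th2 wild-type cells, 3499 ± 1298 bp in Th1 knockout and 4397 ± 150 bp in Th1 wild-type cells, and 2260 ± 216 bp in naive knockout and 3313 ± 322 bp in naive wild-type cells (SD over 2 libraries each). At Cish the Th2 knockout was highest in these equal lists, with both libraries above all others, and naive knockout lowest. In the order of means at Cish, Th1 wild type followed Th2 knockout and Th2 wild type came next, each step larger than the SD of the lower group, whereas Th1 knockout did not differ from its neighbours beyond its spread. The order was different in the full lists, where Th2 wild type (5572 ± 843 bp) lay above Th1 wild type (4920 ± 590 bp) and 1 Th2 wild-type library, at 6168 bp, lay above both Th2 knockout libraries, at 5858 and 5717 bp.

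**Figure D4:**
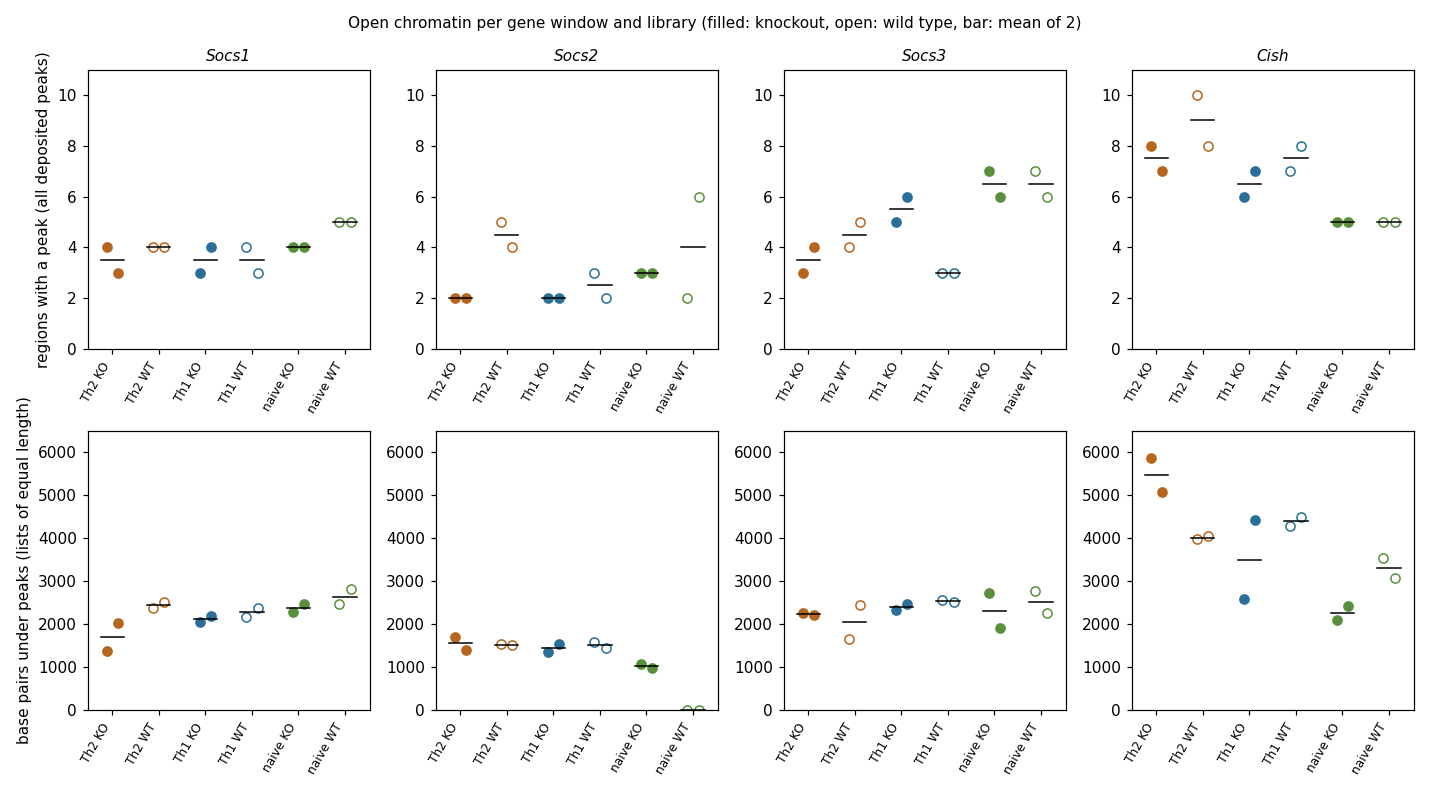
Number of regions with a peak in the full lists (upper row) and base pairs under peaks in lists of equal length (lower row) in the 20 kb window of each gene, per library (filled circles, knockout; open circles, wild type; bars, mean of 2 libraries). Cish has 5 regions in every naive library and 6 to 10 in polarized ones, and Socs2 has 0 bp in both naive wild-type libraries in lists of equal length.

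Loss of the super-enhancer was examined in each cell type. In naive cells 4 of 16 regions were open in knockout only, against a background of 8.67%, and 3 of 18 in wild type only (20.9%). Those open in naive knockout only were the Socs2 region 11.3 kb beyond the gene, a Socs2 region in the gene body (chr10:95389066-95389633), the Cish region 10.7 kb downstream, and a weak region 22.3 kb downstream of the Socs3 start. The Socs2 body region stood at percentiles of 81.0 and 51.8 in the naive knockout lists and was open in no other library. Only both of these Socs2 regions remained called in equal lists, 2 of 13 against a background of 13%, and 0 of 12 were called in the other direction (12.5%).

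More B cell and red cell genes had a peak in naive knockout than in naive wild-type libraries. T cell genes had fewer regions with a peak in naive knockout libraries, and the myeloid and the CD8 and NK lists were mixed. A peak lay within 2 kb of 9 of 9 B cell genes in both naive knockout libraries (24 and 28 regions) and of 6 of 9 in both naive wild-type libraries (14 and 12 regions), where Ms4a1, Cd79b and Fcer2a had none. For red cell genes it was 6 of 6 (10 and 13 regions) in naive knockout and 4 of 6 (4 and 4 regions) in naive wild-type libraries, where Hbb-bs and Hba-a1 had none. For myeloid genes it was 6 of 8 (12 and 13 regions) in naive knockout and 4 of 8 (15 and 15 regions) in naive wild-type libraries, with Lyz2 and Adgre1 at none in either and Csf1r and Cebpa at none in the wild type. Of the myeloid genes, Itgam had 4 and 3 regions in naive knockout and 7 and 7 in naive wild-type libraries, and Spi1 3 and 3 against 5 and 5. For CD8 and NK cell genes it was 4 and 6 of 7 (5 and 7 regions) in naive knockout libraries. In naive wild-type libraries it was 4 and 5 of 7 (5 and 5 regions). T cell genes had a peak at 8 of 8 in each, with 26 and 30 regions in naive knockout and 45 and 51 in naive wild-type libraries. The part of these markers, and of the missing Y-linked peaks, in the naive calls was not tested.

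In Th1 cells 3 of 16 regions were open in knockout only (background 8.76%) and 1 of 15 in wild type only (3.96%). The region 8.38 kb upstream of Socs3 (chr11:117977747-117978322) stood at percentiles of 51.0 and 41.6 in Th1 knockout lists and had no peak in Th1 wild type. It remained called in equal lists, as 1 of 13 against a background of 6.35%, and 1 library of each Th2 genotype had a weak peak there. The Pgs1 promoter region 17.2 kb upstream of Socs3, open in all naive libraries, had peaks at 16.4 and 10.8 in Th1 knockout and none in Th1 wild type.

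Downstream of Socs1, a neighbouring pair of regions was called in opposite directions in Th1 cells. Equal lists, a q-value of 0.01 or lower and a 50% overlap each dropped at least 1 of these calls. The region 16.4 kb away (chr16:10768779-10769152) had peaks at percentiles of 10.6 and 71.3 in Th1 knockout and none in Th1 wild type. The region 15.3 kb away (chr16:10769666-10770245) had peaks at 21.9 and 0.489 in Th1 wild type and none in Th1 knockout, but the 2 wild-type peaks did not overlap each other and were joined by naive peaks between them. In equal lists this region was the 1 of 14 called in Th1 wild type only (6.59%), and the one 16.4 kb away was no longer called. Neither was called with peaks at a q-value of 0.01 or lower, and the wild-type one was not called with a 50% overlap.

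In Th2 cells 0 of 15 regions were open in knockout only (background 4.56%) and 3 of 19 in wild type only (3.83%). They were the Socs1 region 16.4 kb downstream, at percentiles of 41.3 and 29.8 in Th2 wild type, and 2 weak regions in the Socs2 body at percentiles of 3.90 to 26.7. None of the 3 remained in equal lists, where 0 of 12 were open in knockout only (4.57%) and 0 of 10 in wild type only (4.58%).

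Over the 4 knockout and 4 wild-type polarized libraries, the window of Socs1 held 1909 ± 361 bp in knockout and 2361 ± 146 bp in wild type (SD, n = 4 each), a difference of -452 bp (exact permutation p = 0.0571, adjusted p = 1). For Socs2 the difference was -19.5 bp (exact permutation p = 0.857), for Socs3 it was 21.5 bp (exact permutation p = 0.971) and for Cish 279 bp (exact permutation p = 0.714), and each of these 3 changed sign under at least 1 alternative. Of the 16711 genes 381 (2.28%) had an unadjusted p under 0.05 and 0 passed after adjustment. The Socs1 difference reached the smallest possible exact permutation p of 0.0286 with all deposited peaks (-373 bp) and without replicate 2 of the Th1 knockout (-546 bp). These permutations ignored cell type. With genotype permuted within cell type, the smallest exact permutation p of any gene was 0.0556, and 0 genes were under 0.05. By title the Th2 knockout libraries would repeat the Th1 knockout samples, so the 4 knockout libraries may hold fewer biological samples.

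The wider JAK-STAT pathway was read from a list of 36 genes: the SOCS genes Socs4 to Socs7, JAK kinases, STATs, their PIAS and phosphatase inhibitors, and cytokine receptor chains. Between Th2 knockout and wild type 6 of 205 tested regions (2.93%) were open in knockout only and 12 of 217 (5.53%) in wild type only, against 4.56% and 3.83% over the genome. Between Th1 knockout and wild type the counts were 5 of 194 (2.58%) and 3 of 170 (1.76%), against 8.76% and 3.96%. Between naive knockout and wild type they were 9 of 191 (4.71%) and 45 of 251 (17.9%), against 8.67% and 20.9%. Between all polarized and all naive libraries, 38 of 138 regions (27.5%) at 22 genes were open in polarized cells only and 31 of 174 (17.8%) at 16 genes in naive cells only, close to the 27.6% and 18.6% over the genome. Among the other SOCS genes, Socs6 had 2 of its 9 regions open in every polarized and no naive library, while Socs4, Socs5 and Socs7 had 0 of 4, 0 of 4 and 0 of 9. Counted in the same way, over all regions whatever libraries they were open in, it was 6371 of 110642 in the genome. Of the list, Socs6, Pias2 and Il6ra had more base pairs in Th2 than in Th1 libraries at an unadjusted exact permutation p under 0.05. Socs7, Stat4, Stat5a and Ifngr1 had fewer at that level. That is 7 of 36 genes, 3 with more and 4 with fewer, against 12.6% of all genes tested. Of those 16711 genes, 1503 had more and 608 fewer base pairs in Th2 libraries. Between knockout and wild type 1 of the 36, Il7r, had fewer base pairs in the knockout at that level, against 2.28% of all genes. After adjustment 0 of the 36 passed in either comparison.

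The genes whose base pairs under peaks varied most like each member over the 12 libraries were found by Pearson correlation among 15479 to 15484 genes, as a description with no test, since the libraries share cell types and run tags. For Socs1 they were Izumo4 (r = 0.939), Gm13777 (0.866) and Smad1 (0.863). For Socs2 they were Ms4a20 (r = 0.966), Asns (0.958) and Krt80 (0.951). For Socs3 they were Ctsw (r = 0.814), Rprd2 (0.784) and H2-T3 (0.778). For Cish they were Rrp9 (r = 0.955), on the same chromosome 9, Cfap43 (0.927) and Nol10 (0.916).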

How the data were processed

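ATAC-seq peak lists of 12 libraries were analysed. Per the submitters' processing notes, BWA, Picard and MACS2 were used with GRCm38, with settings and versions not given in the sources used here. Per peak, each deposited list held the authors' score, a fold enrichment (ratio) over the local background, a −log10 p-value and a −log10 q-value, and this deposited score equals, in nearly all peaks, 10 times the last of these without its decimals. Depth is unknown, so no counting interval is given.

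Peaks on chromosomes 1 to 19 and X were merged where they overlapped by at least 1 bp. A region belongs to a gene whose body with 20 kb on each side it overlaps (gene positions from RefSeq, GRCm38.p6). A region is called where all libraries of one group and none of the other have a peak. Equal lists hold the 34746 peaks with the lowest q-values of each library. Base pairs under peaks per gene were compared by exact permutation with Benjamini-Hochberg adjustment at 0.05, after a test on simulated data. Named are the 4 members, a list of 36 pathway genes, neighbouring genes in the windows, and the 3 genes most like each member among those with a peak in at least 6 libraries. The members, the lists and the rules were chosen with earlier results of these data known. Same-numbered libraries did not deviate together, which cannot show that they came from different mice, and the fits have no replicate block. The software was Python 3.11.15 with pandas 2.3.3, numpy 2.4.6, matplotlib 3.10.9 and scipy 1.17.1.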

Additional observations from a re-analysis of the deposited data

Results flagged for a closer look

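The Socs1 region 16.4 kb downstream of the start, from 10768779 to 10769152 on chromosome 16, moved in opposite directions in 2 cell types. In Th2 cells it had no peak in either knockout library and peaks at percentiles of 41.3 and 29.8 in wild-type lists. In Th1 cells it had peaks at percentiles of 10.6 and 71.3 in knockout lists and none in wild-type lists. The difference between the cell types was not tested. In equal lists 1 of the 2 peaks dropped out in each of these groups and neither call remained.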

How the results depend on the processing

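Calls at the family depended on list length, threshold, overlap and window. In equal lists the regions open in knockout only and in wild type only were 2 and 0 in naive cells, 1 in Th1 knockout only and 0 in Th2 wild type only. There, 4 regions were open in naive only between Th1 and naive wild type and 3 in Th2 only between Th2 and naive wild type. Between Th2 and Th1, equal lists gave 0 and 1 (knockout), 0 in Th2 wild type only and 0 over 4 against 4. Between 8 polarized and 4 naive libraries, naive-only regions in equal lists were 2. With a q-value of 0.01 or lower the counts were 1 and 0 for Th1 knockout against wild type, 1 in Th2 wild type only, 0 and 1 for Th2 against Th1 knockout, 2 and 0 for Th2 against Th1 wild type, 0 over 4 against 4, and 3 naive-only over 8 against 4. With a 50% overlap they were 2 in naive knockout only, 1 and 0 for Th1 knockout against wild type, 0 and 1 for Th2 against Th1 knockout, 0 in Th1 wild type only, 0 over 4 against 4, and 3 and 0 over 8 against 4. With a 5 kb window they were 2 in naive knockout only, 0 and 0 for Th1 knockout against wild type, 0 and 1 for Th1 against naive knockout, 2 and 2 for Th1 against naive wild type, 2 and 1 for Th2 against naive knockout, 4 and 2 for Th2 against naive wild type, 0 in Th1 knockout only against Th2, 3 and 0 for Th2 against Th1 wild type, and 0 and 0 over 8 against 4. With a 50 kb window they were 6 in naive wild type only, 12 in Th1 only between Th1 and naive knockout, 9 and 16 for Th1 against naive wild type, 12 in Th2 knockout only against naive, 16 and 14 for Th2 against naive wild type, 3 in Th2 knockout only against Th1, 2 over 4 against 4, and 6 and 2 over 8 against 4. The cause of these shifts was not tested, apart from the smaller window holding fewer regions and the larger one more.

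Leaving out 1 library, which can only add calls, gave 4 to 5 and 3 to 6 for naive knockout against wild type, 3 to 4 and 1 to 2 for Th1, and 0 to 1 and 3 to 7 for Th2. Against naive cells it gave 4 to 6 and 4 to 6 for Th1 knockout, 4 to 6 and 7 to 11 for Th1 wild type, 4 to 6 and 6 to 8 for Th2 knockout, and 9 to 10 and 7 to 10 for Th2 wild type. Between Th2 and Th1 it gave 1 to 3 and 2 to 4 in knockout, 5 to 8 and 1 to 3 in wild type, and 1 to 2 and 0 to 0 over 4 against 4. Between 8 polarized and 4 naive libraries it gave 1 to 2 and 1 to 3.

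The window differences of single genes, none of them past the threshold in the reported test, often changed sign. Between Th2 and Th1 the Socs1 difference was 116.75 bp with all deposited peaks, 82.25 bp with a 5 kb window and 113 bp without replicate 1 of the Th2 knockout, that of Socs2 was -61.75 bp with a 5 kb window and that of Socs3 18.75 bp with a 50 kb window. Between knockout and wild type the Cish difference was -57.75 bp with all deposited peaks and -179 bp without replicate 1 of the Th2 knockout. The Socs2 difference was 31.9 bp without replicate 1 of the Th1 knockout, 13.9 bp without replicate 2 of the Th2 knockout and 1.58 bp without replicate 1 of Th1 wild type. The Socs3 difference was -89.25 bp with a 5 kb window, -25.1 bp without replicate 2 of the Th1 knockout and -192 bp without replicate 1 of Th2 wild type. With 1 library left out, the differences ranged between -264.9 and 113 bp for Socs1 (Th2 and Th1), and for knockout and wild type between -87.75 and 31.9 bp for Socs2, -192 and 109.9 bp for Socs3 and -179 and 913 bp for Cish. The cause of these changes was not tested. The Socs1 difference between Th2 and Th1 was -1190 bp with a 50 kb window, at the smallest exact permutation p of 0.0286. With the replicate block the exact permutation p cannot go below 0.125, and 0 genes passed. Same-numbered libraries correlated by -0.00046 to 0.027 in their deviations, which cannot show whether they came from the same mice. Depth is unknown, so weak peaks near the list threshold are the least certain calls.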
